A study of Mus musculus with 6 samples.

Results

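Mucins, trefoil peptides and other genes of mucus-secreting epithelium were followed in the cochlea of male mice of the inbred strain DBA/2J, in which hearing is lost early. The genes were Muc5b, Muc1, Muc13, Tff1, Tff2, Tff3, Agr2, Gp2 and Dmbt1, taken by name, and all 9 were on the array, with 11 of its 22626 probe sets (groups of short probes that together report 1 transcript). Total RNA had been taken from cochlea samples of male DBA/2J mice aged 7 weeks (3 samples) and 36 weeks (3 samples), and each sample had been hybridised to its own single-colour Affymetrix array. All mice had been given a nonpurified diet and acidified water. No treatment or genetic change separated the groups, and the labels do not say how many animals a sample holds, so the spread between arrays may be partly technical. The comparison addressed which transcripts go with age-related hearing loss. The 9 genes were chosen by their signals at 36 weeks against 7 weeks on these same arrays, so their own values are given as a description without a test. The median signal of the 6 arrays lay between 766.3 and 859.3, and limma called 33.6% of the 13575 probe sets bright enough to be tested, 2203 higher and 2355 lower at 36 weeks. With each array centred on its median instead, the split was 1675 higher and 3052 lower. The number of arrays, 3 per age, limits the precision of every value.

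Mucus is a gel built from large, heavily glycosylated mucins, which goblet and gland cells fold in the endoplasmic reticulum, decorate with sugars in the Golgi and store in granules. Trefoil peptides are small, cysteine-rich proteins that are released together with mucins and help epithelium to repair. The mucosa that lines the middle ear, next to the bony cochlea, is an airway type of epithelium with secretory and ciliated cells.

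Promoter sequences from RefSeq (GRCm38.p6) were at hand for 4 of the 9 genes. Those of Muc1, Agr2 and Gp2, whose mean signals were at least 10-fold apart between the ages, are shown beside that of Muc13, whose signals lay close together. Each run holds the 250 bases before the annotated start, 5′ to 3′ on the gene's strand, and capitals mark matches to the 6 motifs searched. Muc1 lies at chr3:89228806-89229055 on the plus strand, Agr2 at chr12:35992675-35992924 on the plus strand, Gp2 at chr7:119459273-119459522 on the minus strand, and the first of the 2 Muc13 starts at chr16:33793787-33794036 on the plus strand.
Muc1: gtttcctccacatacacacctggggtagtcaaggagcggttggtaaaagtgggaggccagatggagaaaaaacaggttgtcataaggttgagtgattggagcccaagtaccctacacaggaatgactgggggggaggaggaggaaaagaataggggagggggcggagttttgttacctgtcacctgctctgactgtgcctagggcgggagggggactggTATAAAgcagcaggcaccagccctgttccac
Agr2: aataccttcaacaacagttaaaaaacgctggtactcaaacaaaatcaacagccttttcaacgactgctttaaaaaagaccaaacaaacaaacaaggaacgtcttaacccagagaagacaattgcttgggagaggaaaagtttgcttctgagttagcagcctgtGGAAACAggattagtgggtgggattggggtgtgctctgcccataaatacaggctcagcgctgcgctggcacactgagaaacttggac
Gp2: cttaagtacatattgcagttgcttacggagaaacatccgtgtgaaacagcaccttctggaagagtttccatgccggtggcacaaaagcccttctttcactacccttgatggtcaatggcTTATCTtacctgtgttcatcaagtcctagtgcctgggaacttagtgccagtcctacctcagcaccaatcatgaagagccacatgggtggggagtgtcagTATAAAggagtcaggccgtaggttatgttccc
Muc13: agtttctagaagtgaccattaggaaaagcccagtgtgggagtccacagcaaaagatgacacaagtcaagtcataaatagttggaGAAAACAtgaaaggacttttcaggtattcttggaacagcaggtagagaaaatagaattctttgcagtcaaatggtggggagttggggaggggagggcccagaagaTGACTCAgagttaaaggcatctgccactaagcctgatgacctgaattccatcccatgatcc

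The motifs were searched on both strands. A TATA box (TATAAA), which 12.4% of 32817 mouse promoter windows of the same length hold, stood 31 bases before the start of Muc1 and 32 bases before that of Gp2. A forkhead (FOX) motif (TGTTTNC), found in 17.8% of windows, was matched on the opposite strand 87 bases before the start of Agr2 and 166 bases before that of Muc13. Gp2 held a GATA motif (AGATAA; 9.99% of windows) on the opposite strand 131 bases before its start, and Muc13 an AP-1 motif (TGANTCA; 6.75% of windows) 61 bases before. Neither the ETS motif (GGAAGT; 19.7% of windows) nor the element of the unfolded protein response (TGACGTG; 1.65% of windows) was matched in these 4 windows. No motif was shared by all of Muc1, Agr2 and Gp2. The matches overlapped no other motif, and they describe letters, not bound sites.

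Of the mucins, Muc5b and Muc1 stood far higher at 36 weeks and Muc13 did not. Muc5b, the gel-forming mucin of airway mucus, read 4659.0, 3903.4 and 4324.7 at 7 weeks and 76945.1, 78703.0 and 80553.6 at 36 weeks in signal units. The groups did not overlap, and the mean signal was 18.3-fold higher at 36 weeks (4296 ± 378.6 against 78734 ± 1804, SD, n = 3 per age). On the scale of log2(signal + 50), used for every difference below and always as 36 weeks minus 7 weeks, Muc5b differed by 4.18 ± 0.075 (SE).

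Muc1, a membrane mucin of the apical cell surface, read 65.5, 87.1 and 81.9 at 7 weeks and 1463.5, 1247.8 and 1453.7 at 36 weeks. All 3 young arrays were dim and all 3 old arrays stood above the array medians. The ratio of mean signals was 17.8, but the young signals may be background, so no exact fold can be read from it. Its log2 difference was 3.49, and it was 4.14 with an offset of 1 in place of 50, because the young signal lay close to the offset. Muc1 had a mean log2 signal under the minimum for testing (9.25, the 40th percentile) and has no standard error from the fit. In bulk tissue a larger number of mucus-secreting cells cannot be told apart from more transcript in each cell, and this holds for every gene below.

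Muc13, a membrane mucin of gut and airway epithelium, had 2 probe sets. Its brighter one, whose probes can bind related transcripts, read 1254.5, 1199.6 and 976.0 at 7 weeks and 2007.9, 1483.5 and 1315.9 at 36 weeks. The groups did not overlap, but only a log2 gap of 0.07 separated the lowest old from the highest young array, and the difference was 0.455 ± 0.185. Without the old array numbered 1, the highest of the 6, it was 0.29. The dimmer probe set overlapped between the ages, with 76.9 ± 80.9 at 7 weeks and 133.2 ± 133.8 at 36 weeks (SD, n = 3). The difference of Muc5b exceeded that of Muc13 by 3.73, with the 9 young-old pairs between 3.13 and 4.22.

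The 3 trefoil peptides did not share a pattern. Tff2, the trefoil peptide of gastric gland mucus, read 5294.5, 4688.0 and 5079.5 at 7 weeks and 110367.9, 118330.1 and 119256.0 at 36 weeks. Every old array was far above every young one, and the means were 23.1-fold apart, with a log2 difference of 4.52 ± 0.068. Tff1, the partner of surface mucus cells, read 9274.4, 6656.3 and 9278.4 at 7 weeks and 11970.9, 10960.8 and 11290.0 at 36 weeks. Its old arrays also lay above all young ones, but the means were only 1.36-fold apart, with a log2 difference of 0.455 ± 0.120. The young array with replicate number 2 was the lowest, and without it the difference was 0.30.

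Tff3, the trefoil peptide of intestinal and airway goblet cells, was dim at both ages and its groups overlapped. It read 269.3, 231.1 and 1194.9 at 7 weeks and 324.9, 489.8 and 529.2 at 36 weeks. The third young array was above every other, and the log2 difference was 0.02 with all arrays, 0.71 without that array and -0.37 without the young array numbered 2. It had no settled direction, since it also lay below 0 without the young array numbered 1 (-0.27), without the old arrays numbered 2 (-0.05) or 3 (-0.10), after quantile normalization (-0.06) and with arrays centred on their median (-0.08). Within arrays, the difference of Tff2 exceeded that of Tff1 by 4.06, with the 9 pairs between 3.70 and 4.29.

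**Figure D1:**
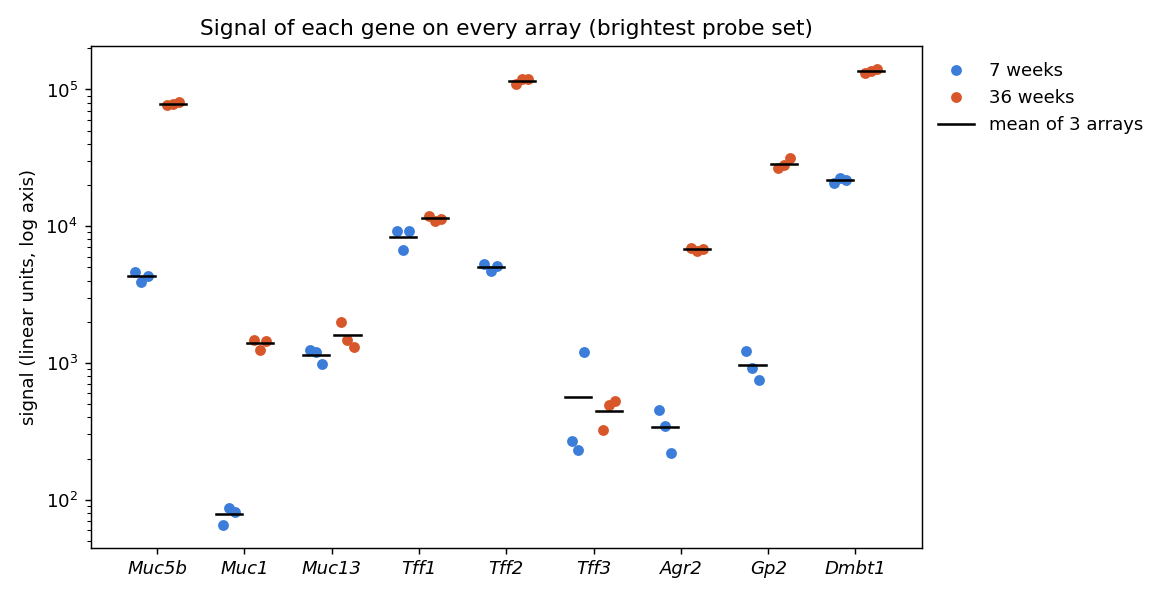
Signal of the brightest probe set of each gene on the 6 arrays (linear units on a log axis), with 7 weeks in blue, 36 weeks in orange and black bars for the mean of 3 arrays. Of the 9 genes, 8 have all orange points above all blue points, by a wide gap in Muc5b, Muc1, Tff2, Agr2, Gp2 and Dmbt1 and a narrow one in Muc13 and Tff1, while Tff3 overlaps because 1 young array reads 1194.9.

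In Agr2, Gp2 and Dmbt1 the brightest probe set read higher on every old array than on any young one, with ratios of means from 6.32 to 29.9. Agr2, a disulfide isomerase of the endoplasmic reticulum needed to make mucins, read 452.9, 343.5 and 220.3 at 7 weeks and 6988.4, 6584.0 and 6832.6 at 36 weeks. The young arrays were dim and the old ones agreed closely, with means 20.1-fold apart and a log2 difference of 4.18 ± 0.204. A second Agr2 probe set, of the kind that can bind related transcripts, stayed dim, with 87.97 ± 103.0 at 7 weeks and 204.3 ± 44.2 at 36 weeks (SD, n = 3) and overlapping groups. The mean of both gave Agr2 a difference of 2.67.

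Gp2, a membrane glycoprotein of secretory granules and of epithelial cells that sample bacteria, read 1223.7, 913.5 and 750.5 at 7 weeks and 26460.1, 28223.5 and 31571.3 at 36 weeks. Its groups were 29.9-fold apart, with a log2 difference of 4.85 ± 0.150. Dmbt1, a secreted scavenger receptor that binds bacteria and trefoil peptides at mucosal surfaces, was bright already at 7 weeks, with 20690.1, 22695.7 and 21790.1. At 36 weeks it read 133033.2, 137087.4 and 141800.5, a 6.32-fold ratio of means and a log2 difference of 2.66 ± 0.060.

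Counted together, 8 of the 9 genes had all old arrays above all young ones, beside 19.2% of all probe sets. Mean signals at least 10-fold higher were seen in 5 of the 9, beside 0.411% of all probe sets, and in Muc1 and Agr2, among the 5, the young signals were dim. Of the 7 genes bright enough to be tested, 6 passed the threshold of limma's fit over all probe sets, all of them higher at 36 weeks, beside 17.1% of 8541 tested genes passing as higher and 17.2% as lower. Tff1 did not pass without the intensity trend, Muc13 did not pass, and Muc1 and Tff3 were not tested. These counts only describe how the genes were picked. The median log2 difference of the 9 genes was 3.49, beside 0.02 over all tested probe sets.

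**Figure D2:**
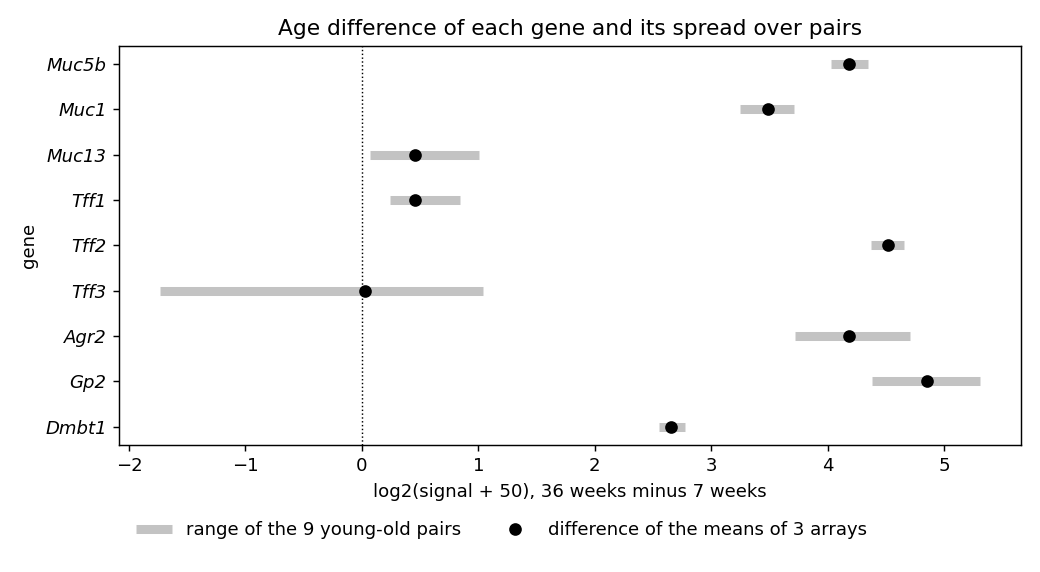
Difference of log2(signal + 50), 36 weeks minus 7 weeks, of each gene (black point, means of 3 arrays) with the range over the 9 young-old array pairs (grey bar). The bar of Tff3 spans 0, those of Muc13 and Tff1 lie just above it, and the other 6 begin at 2.55 or higher.

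Other cell types moved on the same arrays. The gene lists used for them were chosen with earlier results of these data known, so their counts and adjusted p-values are descriptive. All 13 measured neutrophil genes rose by limma, beside 17.1% of all tested genes, with a median log2 difference of 3.80. Their summed signal went from between 50189 and 55539 to between 701833 and 747721. Of 16 tested genes of cochlear cells 13 fell, beside 17.2% of all tested genes, and 0 rose by limma (1 rose without the filter on dim probe sets). The summed signal of the 20 measured went from between 250499 and 258469 to between 63604 and 63947. Lcn2, Camp and Prtn3, granule proteins of neutrophils, rose by 4.80, 4.45 and 3.98 (limma adjusted p of 2.54e-10, 6.87e-09 and 3.49e-10). Otos, secreted by cochlear fibrocytes, was bright at both ages but fell by 2.42 (limma adjusted p = 3.42e-10), from 73912 to 13801. Epyc, a matrix protein of supporting cells, fell by 3.63 (limma adjusted p = 4.65e-10), and Ush1c, a hair bundle scaffold, fell by 2.35 (limma adjusted p = 0.000747). Hair cell genes went both ways. Myo7a and Myo15, hair bundle motors, had differences of 0.35 ± 0.247 and 0.23 ± 0.206 and did not pass. Pou4f3, a hair cell transcription factor too dim on average to be tested, read 17.3, 231.4 and 281.2 at 7 weeks and 681.2, 824.2 and 552.4 at 36 weeks. Slc26a5, the outer hair cell motor, was also too dim to be tested, with 253.7 ± 26.1 at 7 weeks and 331.6 ± 37.4 at 36 weeks (SD, n = 3), and in both genes every old array lay above every young one. Otof, of hair cell synapses, fell by 0.41 ± 0.141 (limma adjusted p = 0.0476). The part of these shifts in the values of the mucus genes was not tested.

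On the log2 scale, the range between arrays was smaller in the old samples than in the young ones for 8 of the 9 genes. In linear signal the SD was larger at 36 weeks in all but Tff1 and Tff3, as for Muc5b with 378.6 at 7 weeks and 1804 at 36 weeks. This is a description without a test, and the share over all probe sets was not counted. Among the 3 young arrays, log2 values ranged over 0.90 for Agr2, 0.67 for Gp2 and 0.48 for Tff1, and among the 3 old arrays over 0.09, 0.25 and 0.13. Muc13 was the exception, with ranges of 0.35 at 7 weeks and 0.59 at 36 weeks. Of the 9 genes, the old arrays with replicate numbers 1, 2 and 3 were the highest of their age in 4, 0 and 5, and the median deviation from the mean of the age stayed between -0.05 and 0.12 on all 6 arrays.

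The trefoil genes lie side by side on chromosome 17, in the order Tff3, Tff2, Tff1, between Abcg1 and Tmprss3. Abcg1, a cholesterol transporter, had a mean signal of 3083 ± 138.8 at 7 weeks and 3104 ± 306.5 at 36 weeks (SD, n = 3). Tmprss3, a membrane protease needed for hearing, fell by 1.17 ± 0.249 on the log2 scale (limma adjusted p = 0.0045), from 1138 to 467.3. Of these neighbours only Tff2 had a large upward difference, Tff1 had a small one and Tmprss3 went the other way.

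Neighbours of the other genes also varied. Trim46, a microtubule-binding protein encoded next to Muc1, rose by 2.13 ± 0.302 (limma adjusted p = 0.000347), whereas Thbs3 on the other side was dim and overlapped between ages. Tollip, beside Muc5b, rose by 0.36 ± 0.096 (limma adjusted p = 0.0147) but did not pass without the young array numbered 2 or the old array numbered 3, with arrays centred on their median or without the intensity trend. Muc5ac, the other major airway gel-forming mucin and the neighbour on the other side, was dim, with 243.1 ± 82.1 at 7 weeks and 207.7 ± 42.3 at 36 weeks. Agr3, the close relative of Agr2 encoded beside it, went the other way. It read 620.6, 694.0 and 516.0 at 7 weeks and 85.3, 158.2 and 82.9 at 36 weeks, too dim on average to be tested, with no overlap. Tspan13, on the other side of Agr2, had a log2 difference of -0.19 ± 0.097 (limma adjusted p = 0.167).

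**Figure D3:**
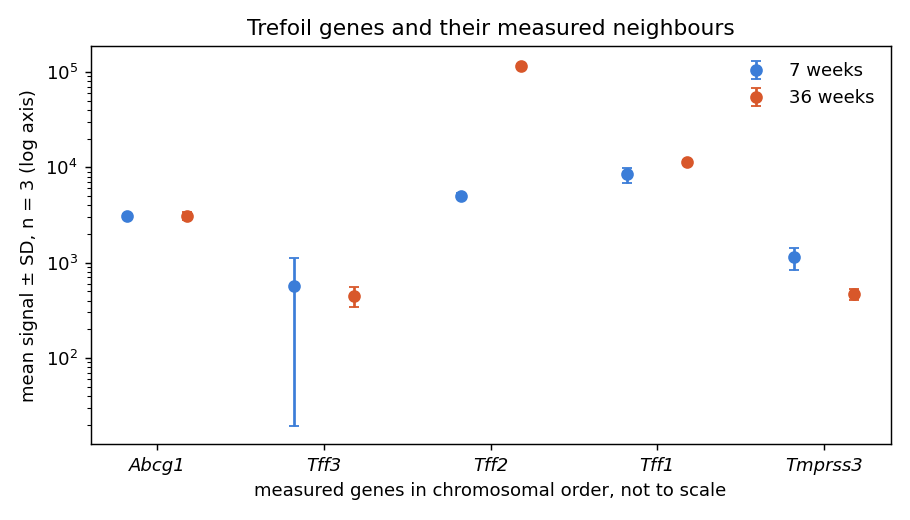
Mean signal ± SD of 3 arrays per age (log axis) for the 3 trefoil genes and the measured genes on either side, in chromosomal order but not to scale. Tff2 goes from 5021 to 115985, while Abcg1 reads 3083 and 3104 and Tmprss3 goes from 1138 to 467.3; the lower bar of Tff3 at 7 weeks ends near the foot of the axis because its SD of 545.8 is close to its mean of 565.1.

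Other genes of mucus production were counted on gene lists, with the brightest tested probe set standing for each gene. The lists were chosen with earlier results of these data known, so their counts and adjusted p-values are descriptive and not independent support. Every list count below stands beside 17.1% of all tested genes passing as higher and 17.2% as lower. Of 14 other mucins and mucin-like genes on the list, 9 were on the array and 4 were bright enough to be tested. Muc20, a membrane mucin, rose by 0.68 ± 0.198 (limma adjusted p = 0.0233), but did not pass without the young arrays numbered 2 or 3 or the old array numbered 1. Cd164, a small sialomucin, fell by 0.72 ± 0.103 (limma adjusted p = 0.00035). The count of lower genes was 1, and it was 2 without the old array numbered 1 and 3 without that numbered 2.

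Of 28 measured genes on the list for mucin O-glycosylation, 14 were tested, of which 5 rose and 2 fell, beside 17.1% and 17.2% of all tested genes. The list does not separate enzymes that act on mucins from those that act on other glycoproteins. B4galnt2, which adds N-acetylgalactosamine to make the Sda antigen, went from 922.1 ± 57.7 to 6109 ± 675.8 (SD, n = 3), a rise of 2.66 ± 0.121 (limma adjusted p = 7.86e-08). Galnt10 and Galnt4, which start O-glycan chains, rose by 1.15 and 1.07 (limma adjusted p = 0.0114 and 0.00106), and the difference of Galnt10 was 0.76 without the young array numbered 1. St6gal1 and St3gal6, both sialyltransferases, fell by 0.71 and 0.40. St6gal1 passed in all 14 alternatives in which it was tested, whereas St3gal6 did not pass without the young arrays numbered 1 or 2 or any 1 of the old arrays. Fut2, the secretor fucosyltransferase, and Gcnt3, the mucin branching enzyme, were dim at both ages.

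Of 10 tested genes of mucus granules, secretion and hydration, 3 rose and 3 fell. Aqp5, the apical water channel of gland cells, went from 2669 ± 348.6 to 9856 ± 824.4 (SD, n = 3), a rise of 1.87 ± 0.113 (limma adjusted p = 6.2e-07). Rab3d, a small GTPase of secretory granules, rose by 1.03 ± 0.164 (limma adjusted p = 0.000763) and Stxbp2, which acts in granule release, by 0.81. Slc12a2, the chloride-loading cotransporter that cochlear fibrocytes and marginal cells also express, fell by 1.24 ± 0.069 (limma adjusted p = 3.48e-07). Clca1, a goblet cell secretory protein, was dim at both ages, with means of 185.5 at 7 weeks and 53.97 at 36 weeks.

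Of 12 tested goblet cell transcription factors, 2 rose (16.7%, beside 17.1% of all tested genes) and 2 fell (beside 17.2%). These counts lie close to the shares over all tested genes. Creb3l1, an endoplasmic reticulum-bound factor, rose by 0.97 ± 0.163 (limma adjusted p = 0.00103) and Foxa1, a forkhead factor, by 0.67 ± 0.196 (limma adjusted p = 0.0237). Klf4, a factor of goblet and squamous cells, fell by 0.86 ± 0.160 (limma adjusted p = 0.00211), and Sox9 fell by 0.54 but did not pass with any 1 array left out. Without the young array numbered 3 only 1 was higher, and without any 1 of the young arrays or the old arrays numbered 1 or 2 only 1 was lower. Foxa1 did not pass without the young arrays numbered 1 or 3 or the old array numbered 1. Spdef, the master regulator of goblet cells, read 182.3, 151.4 and 610.8 at 7 weeks and 1063.5, 762.1 and 1237.1 at 36 weeks. Its old arrays lay above all young ones, but its mean log2 signal was under the minimum for testing.

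Of 23 tested genes of secretory protein folding, 10 rose and 4 fell (43.5% higher, beside 17.1% of all tested genes), with a median log2 difference of 0.03. Pdia5, a disulfide isomerase, rose by 1.56 ± 0.273 (limma adjusted p = 0.00134), Sdf2l1, a chaperone cofactor, by 1.42 ± 0.379 (limma adjusted p = 0.0149) and Derl3, of protein quality control, by 0.99 ± 0.228 (limma adjusted p = 0.0071). The difference of Sdf2l1 was 0.94 without the young array numbered 1. Pdia3, another disulfide isomerase, fell by 0.77 ± 0.128 (limma adjusted p = 0.000974). Hspa5 and Hsp90b1, the main chaperones of the endoplasmic reticulum, had differences of -0.06 ± 0.114 and -0.004 ± 0.086 and did not pass. Ern2, the stress sensor of goblet cells, read 100.5, 46.0 and 56.1 at 7 weeks and 369.0, 268.9 and 477.6 at 36 weeks, too dim to be tested.

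Markers of airway secretory cells differed in brightness at 7 weeks, from 392.6 ± 219.2 for Reg3g to 85219 ± 6262 for Bpifa1 among those tested (SD, n = 3). Of 19 tested, 14 rose and 1 fell (73.7% higher, beside 17.1% of all tested genes), with a median log2 difference of 0.79. The summed signal of the measured genes went from between 228263 and 240748 to between 731584 and 773535. Much of that gain lay in Bpifb1 (58391 to 226319), Lyz1 (21902 to 182890) and Ltf (10654 to 134518), and Ltf is also on the neutrophil list. The probe sets of Bpifb1 and Lyz1 can bind related transcripts, so their signals may not come from these genes alone. Reg3g, Ltf and Lyz1, antibacterial proteins, rose by 5.08, 3.65 and 3.06 (limma adjusted p of 5.31e-07, 5.21e-11 and 6.84e-11), and neutrophils also make Ltf. Pigr, the transporter of immunoglobulin A across epithelium, rose by 2.71 ± 0.129 (limma adjusted p = 1.05e-07). Bpifa1, an abundant secreted protein of airway surface cells, rose by 0.41 ± 0.068 (limma adjusted p = 0.000922), to 113323 ± 5730 (SD, n = 3), but its difference was -0.04 after quantile normalization, where it did not pass. Gsta4, the gene that fell, is a glutathione transferase of many tissues. Scgb1a1, the club cell secretoglobin, was dim at both ages.

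Ciliated cell genes went both ways. Of 5 tested, 2 rose and 2 fell, and Foxj1, the master factor of motile cilia, read 989.9 ± 99.2 at 7 weeks and 927.5 ± 103.2 at 36 weeks (SD, n = 3). Tppp3, also found in other cell types, rose by 1.51 ± 0.079 (limma adjusted p = 2.12e-07), and Mlf1 fell by 1.23 ± 0.211 (limma adjusted p = 0.0012). The pass of Rsph1, which had a difference of -0.76 ± 0.265 (limma adjusted p = 0.0481), was kept without the old array numbered 3 and lost without any other array. Only 1 gene was higher without the young array numbered 2 or the old array numbered 1. The summed signal went from between 21808 and 22981 to between 30518 and 33077. Most of that gain lay in Tppp3, which went from 4655 ± 289.8 to 13308 ± 497.0, and the widely expressed tubulin Tubb4b went from 12359 ± 538.7 to 15349 ± 1473 (SD, n = 3).

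General epithelial genes went both ways. Of 17 tested simple epithelium genes, 5 rose and 4 fell, with a median of -0.10. Lgals3, also a macrophage lectin, rose by 1.55 ± 0.098 (limma adjusted p = 9.3e-07), and Cdh1, E-cadherin, fell by 1.07 ± 0.122 (limma adjusted p = 7.44e-05). Cldn4, a tight junction protein, rose by 0.76 ± 0.260 (limma adjusted p = 0.0446) but passed in only 4 of 13 alternatives, and without the young array numbered 2 or the old array numbered 1 only 3 genes were higher. The lower genes were 1 without the young arrays numbered 2 or 3 and 2 without any 1 old array. Of 9 tested basal and squamous genes, 5 fell and 1, Krt6a, rose, with Krtdap, Krt14 and Krt10 falling by 1.70, 1.38 and 1.08 (limma adjusted p of 0.00911, 0.00289 and 0.00145). Only 3 fell without the young arrays numbered 2 or 3, and 0 rose without the young arrays numbered 1 or 2 or the old array numbered 2.

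Lists for other organs that make trefoil peptides, Gp2 or Dmbt1 were mostly dim. Of 11 measured stomach genes 3 were tested, and Lipf and Ctse rose by 1.35 and 1.04 (limma adjusted p of 2.24e-07 and 2.93e-05). Atp4b, also tested, did not pass. The other 8 were too dim on average to be tested, among them Gkn1, Gkn2, Pgc and Muc5ac, which is an airway mucin too. Lipf was bright, with 40954 ± 2498 at 7 weeks and 104296 ± 7420 at 36 weeks (SD, n = 3), and it is also the lipase of the lingual glands. Of 17 pancreatic genes 5 were tested, 0 rose by limma (1 without the old array numbered 3) and Rnase1 fell by 1.89 (limma adjusted p = 4.66e-07). The acinar enzymes that were tested, Cela3b, Prss2, Cela1 and Cel, had means of 1684, 1279, 1190 and 655.2 at 7 weeks and of 1996, 1277, 1701 and 907.2 at 36 weeks, and none of these 4 passed in limma's fit. Cpa1, another acinar enzyme, was the dimmest gene of the list, with means of 20.33 and 21.67. Of 13 intestinal genes 3 were tested and 0 passed by limma (1 without the intensity trend). Of 12 salivary genes 3 were tested, of which Oit1 and Dcpp3 rose by 2.02 and 0.67 and Egf fell by 0.73 (limma adjusted p of 3.82e-05, 0.0296 and 0.00966). Dcpp3 passed in 7 of 13 alternatives, and 1 gene rose without the young arrays numbered 1 or 2 or the old arrays numbered 1 or 3, while 2 fell without the old arrays numbered 2 or 3.

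**Figure D4:**
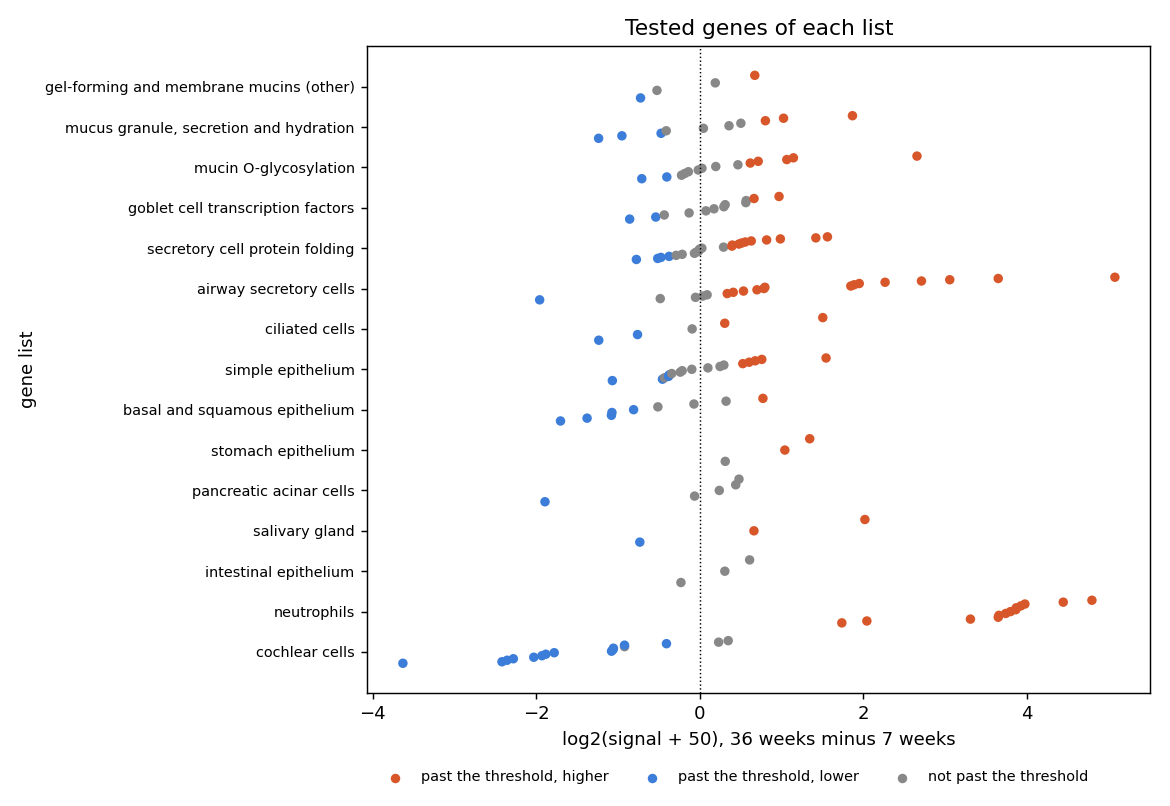
Difference of log2(signal + 50), 36 weeks minus 7 weeks, of every tested gene on each list, coloured by whether it passed the limma threshold as higher (orange), lower (blue) or neither (grey). The airway secretory list has 14 orange points and the neutrophil list 13, the cochlear list has 13 blue points, and the mucin, granule, glycosylation and ciliated lists hold both colours.

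By a distance over the 6 arrays, the antibacterial gene Lyz1 ran closest to the mean profile of the tested mucus genes. That profile averages unlike genes chosen by their age difference, so nearness means only an age difference of similar size. For each probe set the log2 values were taken from their 7-week mean and set against the mean profile of the 7 tested mucus genes. The 6 genes nearest by root mean square difference were Lyz1 (0.08), Lcp1 (0.09), Slfn4 (0.12), Wfdc21 (0.14), Alox5ap (0.16) and Wfdc18 (0.18). Lcp1 and Alox5ap are leukocyte genes, and Wfdc18 is a small secreted protein of epithelia. Their differences lay between 2.85 for Alox5ap and 3.22 for Wfdc18. The mucus genes themselves lay further from their own mean profile, from 0.30 for Dmbt1 to 1.84 for Muc13 and Tff1.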

How the data were processed

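Each deposited value is the intensity of 1 probe set on a linear scale, measured in 1 colour from biotin-labelled cRNA per the labels' protocols. The software and the scaling that the authors used are not given in the sources used here. No detection calls were used, so a dim signal may be background. Genes were named from the platform annotation, in which 20380 of 22626 probe sets have 1 symbol, 691 have several and 1555 have none, and only the first kind was used. Probe sets ending in _x_at or _s_at can bind related transcripts. Among them are those of Lyz1, Wfdc18, Krt14, Dcpp3, St3gal6, Prss2, Bpifb1 and, on the neutrophil list, S100a8, with the brighter of Muc13 and the dimmer of Agr2.

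Signals were transformed as log2(signal + 50). The 13575 probe sets with a mean log2 value above the 40th percentile were fitted with limma 3.58.1 in R 4.3.3 (lmFit, eBayes with intensity trend, unpaired, two-sided), with a Benjamini-Hochberg adjusted p under 0.05 as threshold. The fit was tested on simulated data. A gene was represented by its brightest tested probe set. Figures and counts used Python 3.11.15 and matplotlib 3.10.9. No 2 arrays held identical values.

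The 9 genes and the 15 gene lists were chosen with earlier results of these data known. Named were all 9 genes, of each list the 3 passing genes with the largest difference and all 9 pairs in 1 direction, and the 6 genes nearest in profile. Neighbours (order from RefSeq GRCm38.p6) and any other gene were chosen after their values were seen. Tried in place of these choices were the offsets 1 and 16, arrays quantile-normalized or centred on their median, all probe sets or those above the 60th percentile, no trend, a block for the replicate number, each array left out in turn and the mean over probe sets.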

Additional observations from a re-analysis of the deposited data

How the results depend on the processing

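The 9 genes were chosen by their age difference on these same arrays, so a positive median follows from the choice and is no support. Their median log2 difference was 3.49 and stayed positive under every alternative run. It was 4.14 with an offset of 1, 3.90 with an offset of 16, 3.42 after quantile normalization, 3.39 with arrays centred on their median, 2.67 with the mean over all probe sets of a gene, and between 3.42 and 3.56 with 1 array left out. The median gene was Muc1, whose 7-week signal lies near the offset, and with the mean over probe sets it was Agr2, whose second probe set is dim. Centring moved the median of all tested probe sets from 0.02 to -0.09. The counts of genes higher (59) and lower (39) over all lists stayed within 1.5 times under every alternative, although counts of single lists did not. Without the filter, 4 other mucins were lower in place of 1, 5 transcription factors higher in place of 2 and 1 lower in place of 2, 3 salivary genes lower in place of 1 and 1 higher in place of 2, 1 ciliated gene lower in place of 2 and 1 cochlear gene higher in place of 0. Above the 60th percentile, 0 basal genes were lower in place of 5 and 0 higher in place of 1, 0 ciliated genes lower and 0 salivary genes higher in place of 2, and 1 transcription factor was higher and 1 lower in place of 2, with fewer genes tested. Without the trend, 0 other mucins were higher in place of 1, 1 ciliated gene higher and 1 lower in place of 2, and 1 pancreatic and 1 intestinal gene higher in place of 0. Centring gave 2 other mucins lower in place of 1, as did quantile normalization, and 1 ciliated and 1 salivary gene higher in place of 2. The mean over tested probe sets gave 2 folding genes lower in place of 4, 1 glycosylation gene lower in place of 2 and 0 basal genes higher in place of 1. The cause of these changes was not tested.

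Same-numbered young and old arrays did not deviate together, with correlations of 0.05, -0.01 and -0.003 between their deviations from the age means. Arrays with unlike numbers were not compared, so these values cannot settle whether same-numbered samples share more than a number. With the replicate number as a block, 2071 probe sets were higher and 2226 lower, 56 and 34 genes of the lists, and the median of the 9 genes was 3.49. The block left 2 simple epithelium genes lower in place of 4, and 1 ciliated gene and 1 transcription factor lower in place of 2. Dim probe sets limit Tff3, Muc1, Spdef and the second probe sets of Muc13 and Agr2.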

Other observations

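Some other mucin and mucin-like genes went against the mucus genes at 36 weeks. Mucl2, a mucin-like secretory protein, read 1646.6, 1802.4 and 1276.8 at 7 weeks and 137.9, 19.5 and 75.8 at 36 weeks. Mucl1, its relative, read 1012.4, 833.9 and 1007.1 at 7 weeks and 96.3, 76.2 and 218.2 at 36 weeks. Muc15, a membrane mucin, had means of 879.0 ± 221.2 and 303.0 ± 177.1 (SD, n = 3). In all 3 every old array lay below every young one, but the share of all probe sets that did so was not counted. All 3 were too dim on average to be tested. They were singled out after their values were seen.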
